A study of Heliconius melpomene malleti and Heliconius melpomene plesseni with 96 samples.

Results

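The Ac colour locus neighbourhood of the butterfly *Heliconius melpomene* was measured by 41 array features out of 12832. All of them lie on scaffold HE668478 between positions 30805 and 498544. Of the 41, 26 are predicted genes of that scaffold and 15 are transcribed features of a sequenced walk through the locus, called AC. The 2 rows of the WntA interval were left out by the rule that chose the members. The genes are numbered here from 1 to 26 in the order of their positions, with WntA lying between genes 23 and 24. Genes 12 to 26 were measured by both designs, with 3 probes in the walk design and 9 in the predicted-gene design (5 for gene 17). Genes 8 and 9, 10 and 11, 20 and 21, and 21 and 22 overlap, and the strand was not given, so signal of overlapping genes cannot be told apart.

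In *Heliconius*, the Ac locus is known for its effect on the shape of the pale forewing band, and WntA, a secreted signalling ligand of the Wnt family, is the gene in this interval that has been tied to that effect. Wnt ligands act on neighbouring cells through surface receptors. In the developing wing they help to lay out where colour pattern elements form before scales take up pigment. The files give the features only as scaffold positions, and none of them matched the RefSeq gene table at hand, so no name or role is given to the genes on either side of WntA.

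The study compared 2 races, *H. m. plesseni*, which has a split pale band on the forewing, and *H. m. malleti*, which has a yellow forewing band and a rayed hindwing, in 4 tissues (eye, hindwing, distal forewing and proximal forewing) on pupal days 1, 3, 5 and 7. Each of the 32 combinations had 3 separate samples, each hybridised to an array of its own, for 96 arrays of 1 colour. The sources used here do not say whether the tissues of a group came from the same individuals, or how many individuals made up a sample, so p-values measure the spread between these samples only. Values are log2 of the deposited intensity after quantile normalization over the 96 arrays. A feature was called when limma's moderated test gave a p-value, adjusted over all 12832 features by the Benjamini-Hochberg method, under 0.05. Counts of features with an unadjusted p under 0.05 are given without the share over all features. They are therefore not read as enrichment at the locus. Signals of different probe sets were not set against each other, since probes differ in brightness.

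Of the 96 arrays, 12 stood apart from the rest. The array medians ran from 22.98 to 376 intensity units, and 10 arrays had a median log2 intensity under 5.5. By rank correlation with the means of the 4 tissues, 4 arrays were closer to the other organ than to their own label, 2 of them also dim. Marker genes of eye or wing could not be used for this check, since the features have no gene names. The array labelled malleti eye day 7 with the number 67 in its title had a rank correlation of 0.873 with eye and 0.974 with distal forewing. The array labelled malleti proximal forewing day 7 with the number 69 had 0.98 with eye and 0.87 with proximal forewing. Arrays 8 and 60, both dim, are 2 of the 3 plesseni eye arrays of day 3. Results are therefore given from all 96 arrays and again without the 12. Some of the 12 were chosen by likeness to an organ. Eye and wing differences without the 12 therefore depend in part on that choice. Counts of members in this and other alternative fits are given without the share of all features called there. A change in such a count is therefore not read as a result about the locus. In the second fit plesseni eye day 3 has 1 array, whose spread is assumed to be that of the other groups.

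The plot of levels along the scaffold shows genes 3, 4, 5, 16, 18 and 24 with the widest differences between tissues and days. Race was called in the wing at 0 of the 41 features (1.08% of all features) and hindwing against forewing at 1 (0.0546%). Eye against wing was called at 18 (47.8%), and successive days in the wing at 4 to 12 (13.1% to 41.1%). Across every comparison run, 4 features were never called with all arrays: both designs of gene 26, the predicted-gene design of gene 17 and the walk design of gene 21. In the lowest 25% of all features by mean signal lay 14 of the 41, namely 8 predicted genes and 6 walk features.

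**Figure D1:**
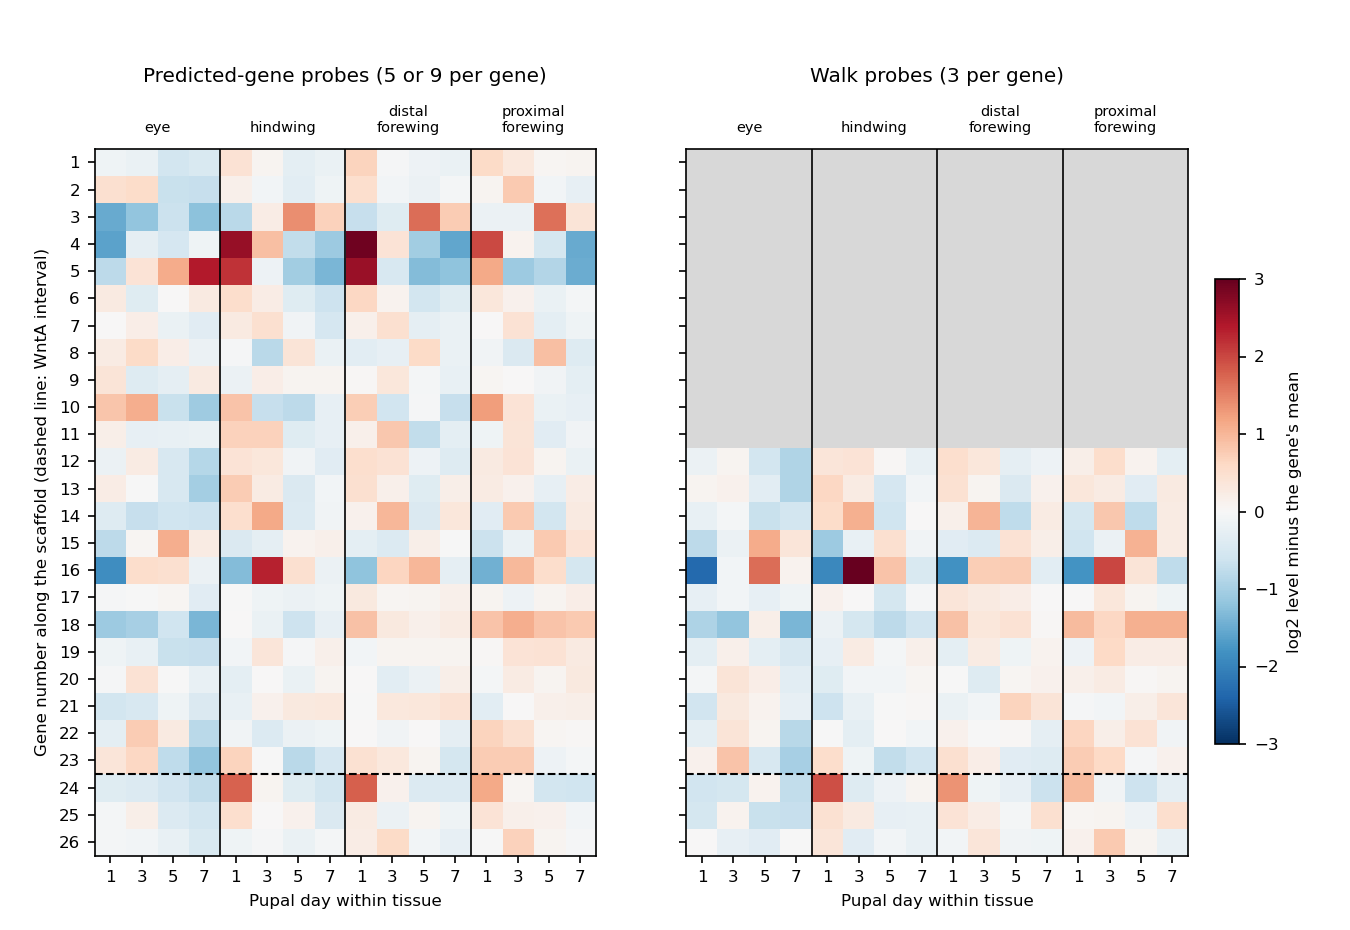
Mean log2 level of each gene by tissue and pupal day, minus that gene's mean over the 16 columns, averaged over both races without the 12 arrays that stand apart; the left panel has the 26 predicted genes and the right panel the 15 walk features (grey: no walk design), and colours stop at 3. Genes 4, 5 and 24 are high on day 1 in all 3 wing regions, gene 5 is also high in the eye on day 7, and gene 16 is low on day 1 in every tissue.

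Eye and wing differed at genes spread along the scaffold, with the eye mostly lower after quantile normalization. The eye was higher at 2 of the 41 features and lower at 16, a total of 18, where 47.8% of all features were called, so the share of members called (43.9%) was near the background. The background leaned the same way, with 17.2% of all features called higher in the eye and 30.7% lower. The median log2 difference was -0.354 over the 41 features and -0.161 over all features. Both designs called the eye lower at 6 genes, namely 12, 13, 14, 18, 19 and 24. Leaving the 12 arrays out gave 1 higher and 17 lower, and 16 of the features were called in both fits. The split depended on scaling: on the deposited log2 scale 4 features were higher and 3 lower, and with arrays centred on their medians 0 were higher and 26 lower. In whole tissue, fewer cells of a type and less RNA per cell cannot be told apart, here or in any comparison that follows.

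Gene 3, at 75674 to 83007, had one of the largest eye deficits. Its lowest, median and highest log2 levels were 3.09, 4.02 and 7.13 in the 24 eye arrays, against 3.54, 5.27 and 8.57 in the 72 wing arrays. The ranges overlapped with all arrays, and also without the 12, at 3.09 to 5.58 in the eye and 3.54 to 8.57 in the wing. The eye was lower by -1.16 ± 0.18 on the log2 scale (SE; limma, adjusted p = 1.14e-07), and by -1.52 ± 0.18 without the 12 arrays (adjusted p = 2.63e-10). Within the arrays of the lower detector gain the difference was -1.11 (adjusted p = 0.000187) and within those of the higher gain it was -1.14 (adjusted p = 0.0667).

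Gene 18, at 365755 to 380944, was lower in the eye in both designs, by -0.94 ± 0.19 with the predicted-gene probes (limma, adjusted p = 1.95e-05) and by -0.93 ± 0.17 with the walk probes (adjusted p = 5.69e-06). Gene 14, at 267761 to 273653, was lower by -0.85 ± 0.18 (adjusted p = 7.31e-05) and -0.65 ± 0.26 (adjusted p = 0.0312) in the same order of designs. Genes 12, 13 and 19 differed by less than 2-fold in each design, from -0.83 to -0.45. Gene 9, at 231359 to 243841, was called higher in the eye by 0.33 ± 0.14 (adjusted p = 0.0499) with all arrays, but its difference was 0.01 without the 12 (adjusted p = 0.946).

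Genes 4 and 5, neighbours at 87787 to 106207 and 110739 to 135156, changed most between the organs, and the change depended on the day. On day 1 the eye was far below the wing at both genes. By day 7 the eye was well above the wing at gene 5. At gene 4 it was higher too, but this was not called with all arrays. At day 1, 6 of the 41 features were called, all of them lower in the eye (16.1% of all features were called), and they belonged to genes 4, 5, 18 and 24. At days 3, 5 and 7 the counts were 12, 2 and 6 of 41, against 33.9%, 32.2% and 24.2% of all features.

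In the eye, gene 4 had lowest, median and highest log2 levels of 4.86, 5.62 and 7.16 on day 1, 6.43, 6.95 and 9.61 on day 3, 5.64, 6.23 and 7.77 on day 5, and 5.09, 6.79 and 7.90 on day 7 (6 arrays each). In the wing the same 3 values were 7.43, 9.67 and 10.73 on day 1, 6.39, 7.48 and 10.18 on day 3, 5.30, 6.25 and 8.06 on day 5, and 5.18, 5.73 and 6.93 on day 7 (18 arrays each). On day 1 the 2 organs did not overlap, and on the later days they did. Gene 4 was lower in the eye on day 1 by -3.90 ± 0.35 on the log2 scale (limma, adjusted p = 3.94e-14). On day 7 gene 4 in the eye stood 0.87 above the wing, which limma did not call with all arrays (adjusted p = 0.058). The difference was called at 1.27 ± 0.32 without the 12 (adjusted p = 0.00102). That fit leaves out arrays set aside for their likeness to the other organ, so the call follows in part from that choice.

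Gene 4 fell in the wing at each of the first 2 steps. Its log2 change was -1.82 ± 0.25 by day 3 (limma, adjusted p = 4.91e-09) and -1.38 ± 0.25 by day 5 (adjusted p = 3.19e-06). The third step, -0.60 ± 0.25, was not called (adjusted p = 0.0986) and was called without the 12 arrays (-0.61, adjusted p = 0.0349). Within the higher-gain arrays the first 2 steps were -1.55 and -1.06 and neither was called (adjusted p = 0.156 and 0.474). In the eye, gene 4 rose by 1.93 ± 0.43 between days 1 and 3 (adjusted p = 0.00147). The highest 2 eye values of day 3 came from the dim arrays 8 and 60, and without the 12 arrays the rise was 1.33 ± 0.45 (adjusted p = 0.0496). On the deposited scale it was 0.87 and not called (adjusted p = 0.361), with the median of all features at -0.715 there. The step of the eye minus the step of the wing was 3.75 ± 0.49 (adjusted p = 7.65e-08). Such a difference of steps was called at 5 of the 41 features between days 1 and 3 (8.6% of all features), at 6 between days 3 and 5 (14%) and at 0 between days 5 and 7 (0.577%).

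Gene 5 moved in opposite directions in the 2 organs. Its lowest, median and highest log2 levels in the eye were 2.84, 3.41 and 4.38 on day 1, 3.00, 4.74 and 5.09 on day 3, 2.72, 5.68 and 6.63 on day 5, and 3.04, 6.50 and 7.70 on day 7 (6 arrays each). In the wing they were 3.54, 6.60 and 7.33 on day 1, 2.64, 3.53 and 4.79 on day 3, 2.74, 3.19 and 4.82 on day 5, and 2.64, 3.00 and 6.47 on day 7 (18 arrays each). The eye medians climbed with each day sampled, and the wing median was high on day 1 alone. The single low eye value of day 7, 3.04, was array 67, and the single high wing value of that day, 6.47, was array 69, the pair whose whole profile was closer to the other organ. Without the 12 arrays the day 7 levels did not overlap, at 6.42 to 7.70 in the eye and 2.64 to 3.39 in the wing. Arrays 67 and 69 were left out there for their likeness to the other organ, so this separation follows in part from that choice.

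The log2 difference between eye and wing at gene 5 was -2.69 ± 0.42 on day 1 (limma, adjusted p = 5.87e-07), 1.71 ± 0.42 on day 5 (adjusted p = 0.000875) and 2.99 ± 0.42 on day 7 (adjusted p = 3.54e-08). The wing fell by 2.42 ± 0.30 between days 1 and 3 (adjusted p = 2.53e-10), while no single step of the eye was called. A contrast of day 7 against day 1, added after the values were seen, gave 2.70 ± 0.51 in the eye (adjusted p = 6.79e-05) and -2.98 ± 0.30 in the wing (adjusted p = 1.17e-13). The change of the eye minus that of the wing was 5.68 ± 0.59 with all arrays (adjusted p = 9.13e-11) and 6.48 ± 0.46 without the 12 (adjusted p = 1.71e-16). The fit without the 12 leaves out arrays set aside for their likeness to the other organ. The wing fell at gene 5 between days 1 and 3 within both gain settings, by 2.33 at the lower gain (adjusted p = 5.33e-05) and by 2.84 at the higher (adjusted p = 0.00706).

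Gene 24, at 486270 to 489436, is the first gene beyond WntA. With the predicted-gene probes its median log2 levels in the eye were 3.63, 3.69, 3.36 and 3.17 on days 1, 3, 5 and 7, within a range of 2.94 to 4.57 over the 24 arrays. In the wing its lowest, median and highest levels were 3.78, 5.51 and 6.69 on day 1, 3.38, 3.82 and 4.79 on day 3, 2.99, 3.45 and 3.88 on day 5, and 2.93, 3.39 and 5.28 on day 7 (18 arrays each). High values were thus found in the wing on day 1, and no eye array reached the wing median of that day. The eye was lower on day 1 by -1.72 ± 0.24 (limma, adjusted p = 4.35e-08) with the predicted-gene probes and by -1.57 ± 0.29 (adjusted p = 2.55e-05) with the walk probes. The wing fell by day 3 in both designs, with log2 changes of -1.43 ± 0.17 (adjusted p = 1.12e-10) and -1.56 ± 0.21 (adjusted p = 3.68e-09). The step of the eye minus that of the wing was 1.68 ± 0.34 (adjusted p = 0.000528) and 1.73 ± 0.42 (adjusted p = 0.00389). On the deposited scale that difference was 1.50 (adjusted p = 0.216) and 1.46 (adjusted p = 0.296), and with arrays centred on their medians it was 2.10 (adjusted p = 0.0703) and 2.07 (adjusted p = 0.0809). Both designs of gene 24 lay in the lowest 25% of all features by mean signal.

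**Figure D2:**
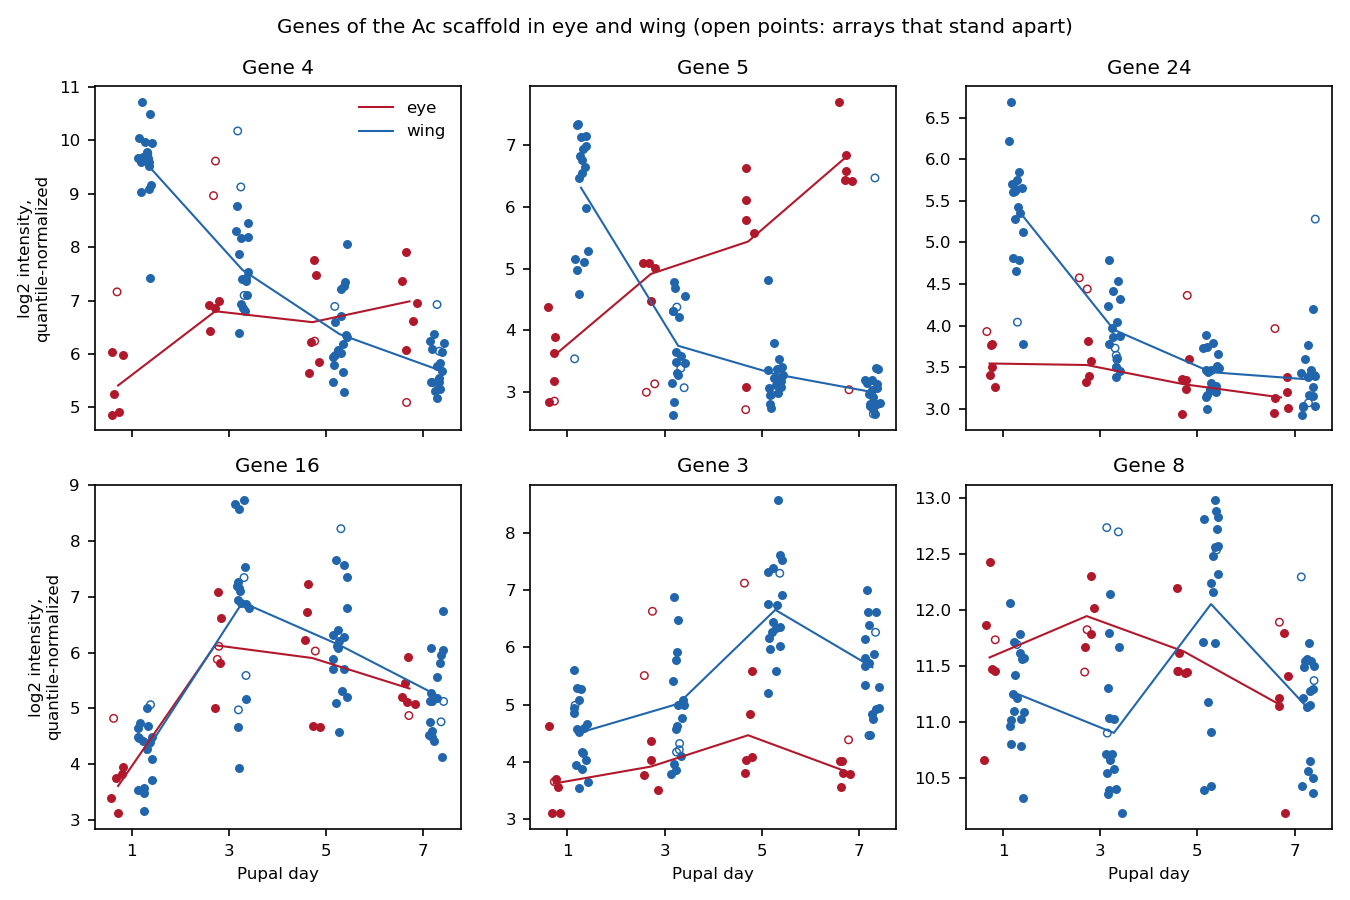
Log2 intensity of 6 genes by pupal day in eye (red, left of each day) and wing (blue, right), predicted-gene probes, 1 point per array; lines join the means without the 12 arrays that stand apart, which are drawn open. Genes 4, 5 and 24 are high in the wing on day 1, the eye line of gene 5 climbs to 6.79 on day 7, and gene 16 is lowest on day 1 in both organs.

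Between days 1 and 3 in the wing, 10 of the 41 features were called, 5 upward and 5 downward, against 29.7% of all features. The splits were 2 upward and 4 downward on the deposited scale, and 3 and 4 with arrays centred. Besides genes 4, 5 and 24, the falling features included gene 10, at 244667 to 247210, by -0.96 ± 0.33 (limma, adjusted p = 0.0197). Of the rising features, 2 belonged to gene 16, 2 to gene 19 and 1 to gene 14.

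Gene 16, at 292749 to 297843, rose most, in both organs and both designs. Its predicted-gene log2 levels in the eye had lowest, median and highest values of 3.12, 3.79 and 4.82 on day 1, 5.01, 5.99 and 7.08 on day 3, 4.67, 6.12 and 7.22 on day 5, and 4.87, 5.16 and 5.92 on day 7 (6 arrays each). In the wing they were 3.17, 4.40 and 5.07 on day 1, 3.93, 7.02 and 8.72 on day 3, 4.58, 6.16 and 8.22 on day 5, and 4.13, 5.13 and 6.74 on day 7 (18 arrays each). In the eye days 1 and 3 did not overlap, and in the wing they overlapped through 3 arrays of day 3, at 3.93 in array 80, 4.67 in array 33 and 4.98 in array 32. The wing rose by 2.48 ± 0.27 with the predicted-gene probes (limma, adjusted p = 5.68e-12) and by 3.55 ± 0.42 with the walk probes (adjusted p = 6.77e-11). Within the lower-gain and the higher-gain arrays the predicted-gene rise was 1.86 (adjusted p = 0.000721) and 3.12 (adjusted p = 0.000106). The eye rose by 2.27 ± 0.47 (adjusted p = 0.000625) and 3.17 ± 0.72 (adjusted p = 0.00219), the second being 2.25 and not called without the 12 arrays (adjusted p = 0.0693). From day 5 to day 7 the wing fell by 1.04 ± 0.27 (adjusted p = 0.00437) and 1.18 ± 0.42 (adjusted p = 0.0472). The walk call was lost on leaving out any of 25 single arrays, and the fall was not called on the deposited scale with either design (adjusted p = 0.292 and 0.333).

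Gene 19, at 385746 to 390167, rose slightly by day 3, by 0.43 ± 0.15 and 0.50 ± 0.16 with predicted-gene and walk probes (limma, adjusted p = 0.0238 and 0.00999). Gene 14 rose by 0.76 ± 0.26 with the predicted-gene probes (adjusted p = 0.0177). That call was lost without array 5, a dim malleti hindwing array of day 1 (0.58, adjusted p = 0.0608). Its walk probes gave 0.47 ± 0.36 with all arrays (adjusted p = 0.377) and 0.90 ± 0.20 without the 12 (adjusted p = 0.000162).

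Between days 3 and 5 in the wing, 12 of the 41 features were called, 4 upward and 8 downward, against 41.1% of all features. Without the 12 arrays 19 were called, and with arrays centred the split was 3 upward and 10 downward. The share of all features is not given for either of these fits. Gene 3 rose most, by 1.81 ± 0.25 (limma, adjusted p = 1.06e-08). Its lowest, median and highest wing levels were 3.54, 4.58 and 5.61 on day 1, 3.78, 4.70 and 6.88 on day 3, 5.19, 6.59 and 8.57 on day 5, and 4.46, 5.70 and 7.01 on day 7 (18 arrays each), so days 3 and 5 overlapped in part. Gene 8, at 223400 to 231543, rose by 0.98 ± 0.20 (adjusted p = 6.15e-05), with wing medians of 11.24, 10.81, 12.40 and 11.29 on days 1, 3, 5 and 7. Gene 15, at 283963 to 285642, rose in both designs, by 0.76 ± 0.22 and 0.85 ± 0.26 with predicted-gene and walk probes (adjusted p = 0.00364 and 0.00592).

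Beside gene 4, the falls between days 3 and 5 took in genes 11, 14, 16, 23 and 24. Gene 14 fell in both designs, with changes of -1.25 ± 0.26 and -1.21 ± 0.36 (limma, adjusted p = 4.54e-05 and 0.00486), so its wing level peaked on day 3, with predicted-gene medians of 8.95, 9.80, 8.41 and 9.02 over the 4 days. Gene 11, at 247206 to 253304, changed by -0.95 ± 0.20 (adjusted p = 5.96e-05). The walk design of gene 16 changed by -1.10 ± 0.42 (adjusted p = 0.0279), a call lost on leaving out any of 6 single arrays and absent at the lower gain (-0.08, adjusted p = 0.937). Gene 23, at 403080 to 405490 and the last gene before WntA, changed by -0.70 ± 0.27 and -0.57 ± 0.23 with predicted-gene and walk probes (adjusted p = 0.0325 and 0.0378).

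Between days 5 and 7 in the wing, 4 of the 41 features were called, all downward, against 13.1% of all features. These were genes 3 and 8 and both designs of gene 16. Gene 3 changed by -1.07 ± 0.25 (limma, adjusted p = 0.0015) and gene 8 by -0.88 ± 0.20 (adjusted p = 0.00121), so the 2 genes peaked on day 5 among the days sampled. On the deposited scale 0 of the 41 were called at this step, and with arrays centred 1 rose and 3 fell. Leaving out the 12 arrays gave 9 calls, with gene 14 rising again by 0.63 and 0.87 (adjusted p = 0.004 and 0.000583).

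In the added contrast of day 7 against day 1 the wing had 20 of the 41 features called, 7 higher and 13 lower on day 7, against 41.1% of all features. The split was 3 and 7 on the deposited scale. Falls of over 2-fold were found at gene 4 (-3.80 ± 0.25, adjusted p = 6.71e-22), gene 5, both designs of gene 24 (-1.89 and -1.75), gene 10 (-1.47 ± 0.33, adjusted p = 0.000159) and the predicted-gene design of gene 23 (-1.07 ± 0.27, adjusted p = 0.000817; limma throughout).

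In the eye, fewer features passed at each step, with 6 arrays a day. Between days 1 and 3, 4 of the 41 were called, 3 upward and 1 downward, against 9.23% of all features. These were gene 4, both designs of gene 16 and the walk design of gene 12. Gene 12, at 253589 to 260897, had a walk change of -1.28 ± 0.40 (limma, adjusted p = 0.0303) that rested on arrays 8 and 60. It was 0.26 without the 12 arrays (adjusted p = 0.671), and 2 features were called in all, those of gene 4 and gene 16 with the predicted-gene probes. Leaving out array 82, the third plesseni eye array of day 3, raised the count to 18.

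Between days 3 and 5, 6 of the 41 features were called in the eye, 5 upward and 1 downward, against 15% of all features. The 5 rises, both designs of genes 20 and 22 and the predicted-gene design of gene 21, run from 1.14 to 2.11 on the log2 scale. In plesseni on day 3, gene 20 (391110 to 398225) stood at 3.39, 4.37 and 9.91 with the predicted-gene probes. In malleti on that day it stood between 9.31 and 9.56. The 2 low plesseni values were arrays 8 and 60. None of the 5 rises was called without the 12 arrays, and gene 20 changed by -0.43 ± 0.25 with the predicted-gene probes (limma, adjusted p = 0.232). In that fit 5 features were called, 1 upward and 4 downward, of which gene 2 alone was called in both. The count was 0 without array 8, 2 without array 15, 2 without array 60 and 15 without array 82. The downward feature was gene 2, at 61616 to 65678, which changed by -1.05 ± 0.38 (adjusted p = 0.0473) and by -1.22 ± 0.42 without the 12 (adjusted p = 0.0313), and it lost its call on leaving out any of 12 single arrays.

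Between days 5 and 7, 0 of the 41 features were called in the eye by limma, against 2.15% of all features, and 7 had an unadjusted p under 0.05. The walk design of gene 18 was called without the 12 arrays (-1.55 ± 0.41, adjusted p = 0.0445). Single arrays moved the count to 3 (array 38) or 1 (array 82 or 89). The added contrast of day 7 against day 1 called 6 in the eye, 2 higher and 4 lower, against 17.4% of all features, and the split was 3 and 1 on the deposited scale and 3 and 2 with arrays centred. Beside the rises of genes 5 and 16, gene 10 changed by -2.19 ± 0.57 (adjusted p = 0.00363) and gene 23 by -1.85 ± 0.47 (adjusted p = 0.00298) and -1.18 ± 0.39 (adjusted p = 0.0265), and gene 2 by -1.46 ± 0.38 (adjusted p = 0.00356). The predicted-gene medians of gene 23 in the eye were 10.06, 9.80, 9.27 and 8.65 over the 4 days. Gene 10 and gene 23 were lower on day 7 than on day 1 in both organs.

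Among the 3 wing regions few features were called, in the neighbourhood as over all features. Between distal and proximal forewing, 0 of the 41 features were called by limma, against 0.522% of all features, and 2 had an unadjusted p under 0.05. The 95% interval of the difference lay within 2-fold either way for 38 of the 41. Gene 18 with the walk probes had the lowest p, with a difference of -0.58 ± 0.21 (adjusted p = 0.302), followed by gene 19 with the walk probes at -0.31 ± 0.14 (adjusted p = 0.483). By day, 0 features were called, against 1.04%, 0.0623%, 0% and 0.0701% of all features on days 1, 3, 5 and 7. Unadjusted p-values of limma under 0.05 were found at 3, 4, 2 and 0 of the 41 on those days. At single days 8 to 17 of the 41 intervals lay within 2-fold, so a difference of that size at 1 day was not excluded for most features. Whether the distal to proximal difference itself differed by race was called at 0 features (0% of all features), and 0 of the 41 had an unadjusted p under 0.05.

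Gene 5 on day 1 was called between the forewing sections only without the 12 arrays. Its log2 levels had lowest, median and highest values of 6.55, 7.03 and 7.32 in distal forewing, against 4.59, 5.22 and 6.82 in proximal forewing (6 arrays each), and 3.54, 6.61 and 7.33 in hindwing. Distal values were high and close together, and only the highest proximal value reached into their range. The distal minus proximal difference was 1.46 ± 0.51 with all arrays and was not called (limma, adjusted p = 0.217). It was 1.46 ± 0.36 and called without the 12 arrays (adjusted p = 0.0122), where all forewing arrays of day 1 still enter and the fitted spread is smaller.

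Between hindwing and forewing, 1 of the 41 features was called, the walk design of gene 18, lower in the hindwing, against 0.0546% of all features. That feature lay in the lowest 25% of all features by mean signal, so it does not enter the fit without those features. In the 24 eye arrays the lowest log2 level of gene 18 with the walk probes was 2.34 and the median 3.34. The lowest, median and highest values were 2.91, 3.74 and 5.22 in hindwing, 3.27, 4.87 and 5.70 in distal forewing, and 3.77, 5.34 and 6.80 in proximal forewing (24 arrays each). With the predicted-gene probes the medians were 4.03 in eye, 4.64 in hindwing, 5.24 in distal forewing and 5.82 in proximal forewing. The order was the same in both designs, while the ranges of neighbouring tissues overlapped and the step from proximal to distal forewing was not called in either.

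The hindwing minus forewing difference of gene 18 was -1.10 ± 0.18 with the walk probes (limma, adjusted p = 0.000244) and -0.85 ± 0.20 with the predicted-gene probes (adjusted p = 0.0638). Both were called without the 12 arrays, at -1.18 ± 0.17 and -0.91 ± 0.13 (adjusted p = 2.34e-05 each). The walk difference was -0.98 on the deposited scale (adjusted p = 0.163) and -1.09 with arrays centred (adjusted p = 0.0753). Within the lower-gain arrays it was -1.16 (adjusted p = 0.0188), and within the higher-gain arrays -1.20 (adjusted p = 1). By day, 0 features were called with all arrays, against 0.249%, 0.0546%, 0.00779% and 0.039% of all features, and without the 12 both designs were called on day 5, at -1.53 ± 0.33 and -1.12 ± 0.25 (adjusted p = 0.0119 and 0.0176). The predicted-gene level of 9.01 in a distal forewing array of day 3 and those of 7.46 and 7.07 in eye arrays of day 3 came from dim arrays, and the proximal forewing value of 3.58 on day 7 was array 69.

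**Figure D3:**
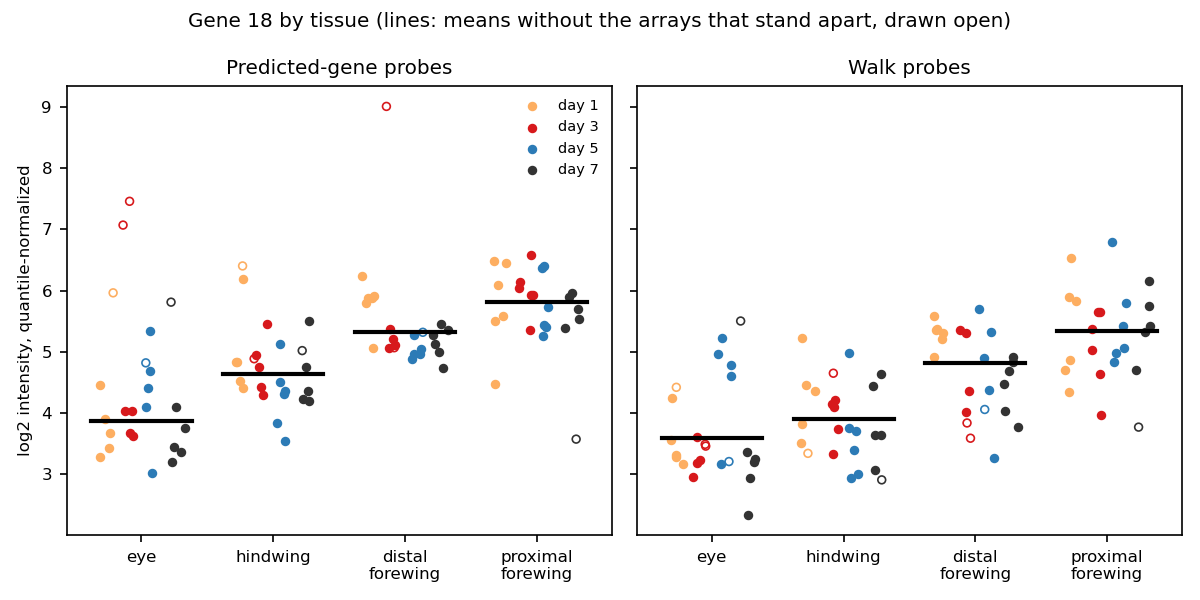
Log2 intensity of gene 18 in eye, hindwing, distal forewing and proximal forewing, 1 point per array coloured by pupal day, for the predicted-gene probes (left) and the walk probes (right); black lines are means without the 12 arrays that stand apart, which are drawn open. In both designs the means climb in the order eye, hindwing, distal forewing, proximal forewing.

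The race comparison addresses whether genes around the colour locus are expressed differently in butterflies with different wing patterns. In the wing, averaged over the 3 regions and 4 days, 0 of the 41 features were called by limma, against 1.08% of all features, and 3 had an unadjusted p under 0.05. The plesseni minus malleti difference ran from -0.39 to 0.38 on the log2 scale over the 41 features. All 41 of the 95% intervals lay within 2-fold either way, the widest bound being 0.97. The median difference was 0.096 over the 41 and -0.01 over all features.

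The genes on either side of WntA did not pass the test. With the predicted-gene probes, gene 23 averaged 9.88 ± 0.67 in plesseni wings and 10.08 ± 1.06 in malleti wings (SD, n = 36 each), a log2 difference of -0.20 with a 95% interval of -0.58 to 0.18 (limma, adjusted p = 0.804). With the walk probes the difference was -0.14, from -0.45 to 0.18. Gene 24 averaged 3.97 ± 0.92 in plesseni wings and 4.08 ± 0.95 in malleti wings, a difference of -0.11 from -0.35 to 0.14 (adjusted p = 0.837), and -0.13 from -0.42 to 0.17 with the walk probes. The day 1 wing, where gene 24 was high, gave 0.14 ± 0.24 and -0.07 ± 0.29 for it in the 2 designs (adjusted p = 0.881 and 0.958), and for gene 23 it gave -0.87 ± 0.38 and -0.63 ± 0.32 (adjusted p = 0.351 and 0.48).

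The lowest p in the wing belonged to gene 9. Its lowest, median and highest log2 levels were 7.04, 7.71 and 8.40 in plesseni, against 7.03, 8.02 and 10.56 in malleti (36 arrays each), and the groups overlapped almost fully. Its difference was -0.39 ± 0.14 (limma, adjusted p = 0.203). Gene 26, at 495897 to 498544, was second, at 0.35 ± 0.17 (adjusted p = 0.484).

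**Figure D4:**
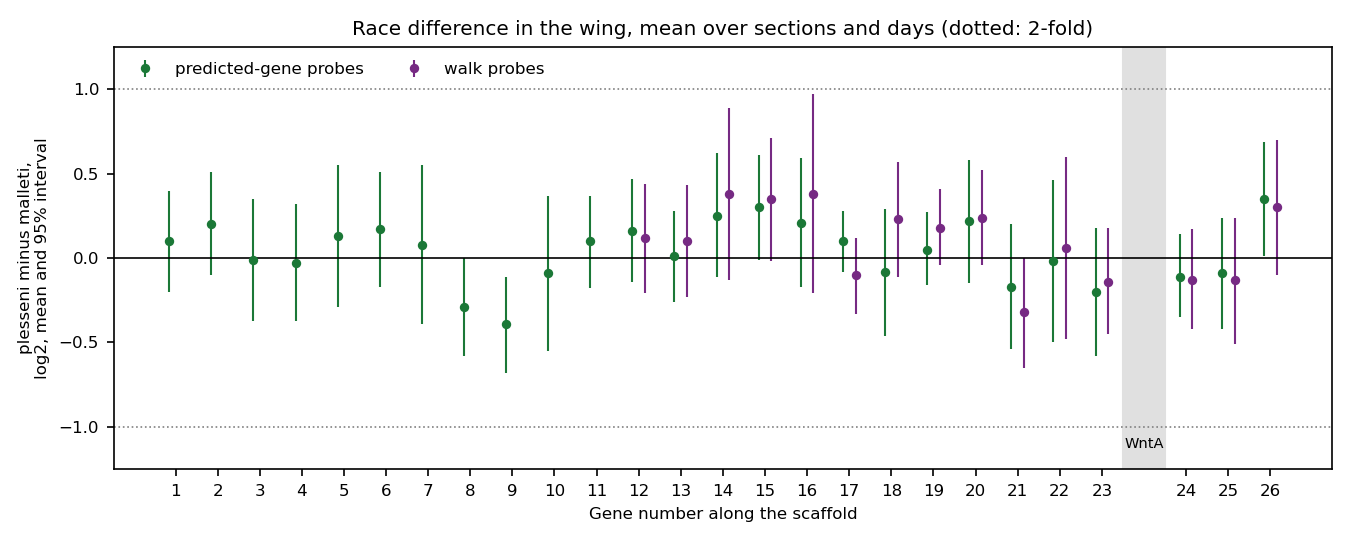
Plesseni minus malleti log2 difference in the wing, mean over the 3 regions and 4 days, by gene number, with 95% intervals from limma for the predicted-gene probes (green) and walk probes (purple); the grey band stands for WntA, left out here, and dotted lines mark 2-fold. All 41 intervals lie between the dotted lines.

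Within single regions, 0 of the 41 features were called for race in proximal forewing (0.0312% of all features), distal forewing (0%) or hindwing (0%). Unadjusted p-values under 0.05 were found at 1, 4 and 0 of the 41. The intervals lay within 2-fold for 33, 26 and 34 of the 41, so a difference of 2-fold was not excluded for 8, 15 and 7 features. For gene 24 the predicted-gene intervals were -0.37 to 0.46 in proximal forewing, -0.55 to 0.28 in distal forewing and -0.64 to 0.19 in hindwing. For gene 23 they were -0.94 to 0.39, -0.88 to 0.45 and -0.78 to 0.55. In single regions on single days 0 of the 41 were called with all arrays, against 0.538%, 0.234%, 0.00779% and 0.0312% of all features in proximal forewing on days 1, 3, 5 and 7. In distal forewing the background was 0.14%, 0.0234%, 0.00779% and 0%, and in hindwing it was 0.0156%, 0.0857%, 0.0156% and 0.0234%. Intervals are not given for single regions on single days, so the lack of calls there is not read as a lack of difference.

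By day, 0 of the 41 features were called for race in the wing with all arrays. The share of all features called was 1.75%, 1.34%, 0.803% and 0.281% on days 1, 3, 5 and 7. The interval of the difference lay within 2-fold either way for 23, 19, 19 and 30 of the 41 on those days. A difference of 2-fold at 1 day was therefore not excluded for the other features. The numbers with an unadjusted p under 0.05 were 2, 6, 4 and 2, and 2 genes crossed the threshold without the 12 arrays. Gene 8 on day 5 had lowest, median and highest log2 levels of 10.40, 11.72 and 12.73 in plesseni, against 11.71, 12.57 and 12.98 in malleti (9 arrays each). Plesseni values spread wider and reached lower. The difference was -0.98 ± 0.29 (limma, adjusted p = 0.0862) and -1.12 ± 0.27 without the 12 (adjusted p = 0.0136).

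Gene 26 on day 3 was the other. With the predicted-gene probes its lowest, median and highest log2 levels were 3.07, 3.62 and 8.45 in plesseni, against 3.00, 3.51 and 4.38 in malleti (9 arrays each), and with the walk probes they were 2.82, 3.51 and 8.45 against 2.41, 2.91 and 4.19. The medians were close, and 3 plesseni arrays stood far above the rest in both designs, 1 from each wing region. The predicted-gene and walk values were 8.45 and 8.45 in array 80 of proximal forewing, 6.81 and 5.60 in array 56 of distal forewing, and 6.02 and 6.13 in array 32 of hindwing, which is among the 12 that stand apart. The difference was 1.22 ± 0.34 with the predicted-gene probes (limma, adjusted p = 0.0508), 1.29 ± 0.35 without the 12 (adjusted p = 0.0339), and 1.30 with the walk probes (adjusted p = 0.0854). Proximal forewing alone gave 2.13 ± 0.59 (adjusted p = 0.126), and 2.13 ± 0.54 without the 12 (adjusted p = 0.0353). There the predicted-gene levels were 8.45, 4.19 and 3.47 in plesseni, against 3.00, 3.15 and 3.56 in malleti, so array 80 alone was far above the rest. Without array 80 as well as the 12, neither difference was called, at 0.77 ± 0.24 in the wing (adjusted p = 0.0771) and 0.59 ± 0.40 in proximal forewing (adjusted p = 0.983).

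**Figure D5:**
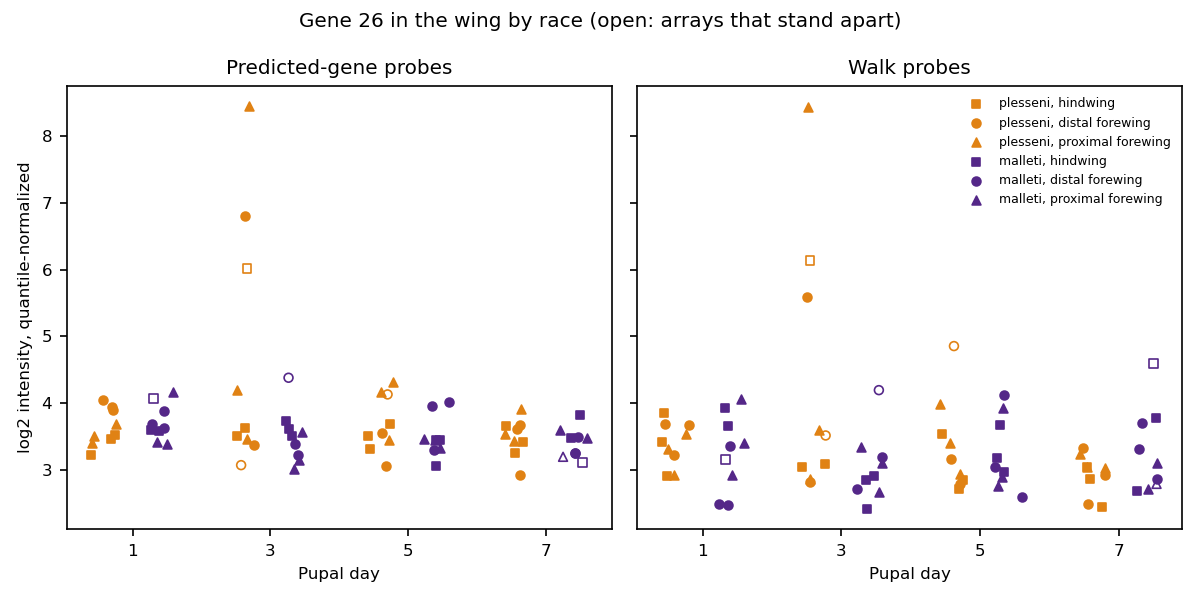
Log2 intensity of gene 26 in the wing by pupal day, plesseni (orange, left of each day) and malleti (purple, right), with a symbol for each wing region and open symbols for arrays that stand apart; the left panel has the predicted-gene probes and the right panel the walk probes. The 3 highest points of each panel, from 5.60 to 8.45, are plesseni arrays of day 3, 1 from each region.

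For race in the eye, 13 of the 41 features had an unadjusted p of limma under 0.05, not set against a share of all features. Called was 1 of the 41, the walk design of gene 12, lower in plesseni, against 0.966% of all features. Its lowest, median and highest log2 levels were 3.45, 7.87 and 8.68 in plesseni, against 7.88, 8.31 and 9.06 in malleti (12 arrays each). The difference was -1.07 ± 0.28 (limma, adjusted p = 0.0462), and without the 12 arrays -0.26 ± 0.22 (adjusted p = 0.923). In plesseni on day 3 the feature stood at 3.45 and 4.81 in 2 arrays and 8.68 in the other. The low pair were the dim arrays 8 and 60, and this call was lost on leaving out any of 27 single arrays. The count of called features was 13 without array 82 and 2 without array 55.

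On day 3 alone, 18 of the 41 features were called for race in the eye, 7 higher and 11 lower in plesseni, against 31.2% of all features. Leaving out the 12 arrays left plesseni with 1 array, and the predicted-gene design of gene 14 then differed by -1.91. The array medians of that day ran from 22.98 to 63.03 intensity units in plesseni eye. In malleti eye they ran from 168.3 to 342.1, so each plesseni array was dimmer than each malleti array. An effect of brightness on the race difference was not tested. On days 1, 5 and 7 the count was 0, against 1.54%, 0.0234% and 0.0156% of all features. Without the 12, gene 2 was called on day 1, at 1.92 ± 0.52 (adjusted p = 0.0258). Whether the race difference in the eye differed from that in the wing was called at 0 of the 41 (0.0312% of all features), while 15 had an unadjusted p under 0.05. The dim plesseni eye arrays of day 3 enter this contrast, and the 15 are not set against a share of all features. The number called, 0 with all arrays, was 12 without array 82, 4 without array 73 and 2 without array 33 or array 46.

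The 2 designs of a gene followed each other for most genes. Over the 32 group means, the correlation between the predicted-gene and the walk probe sets had a median of 0.892 over the 15 genes, from 0.241 at gene 17 to 0.961 at gene 12. Gene 17 lay in the lowest 25% by signal in both designs. Both designs of a gene read the same RNA on the same arrays, so their agreement carries no independent replication of a sample.

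Genes next to each other on the scaffold had a higher median correlation than all other pairs, as a description over the same 32 group means. The overlapping genes, whose signal cannot be told apart, are among the 25 neighbouring pairs. The 25 neighbouring pairs had a median correlation of 0.41, from -0.447 to 0.807, and the other 300 pairs had 0.058, from -0.74 to 0.882. The highest values were 0.882 for genes 10 and 23, 0.857 for genes 4 and 24, 0.82 for genes 7 and 14, and 0.807 for the overlapping genes 20 and 21. Neighbours 4 and 5 had 0.675. All pairs share arrays and their brightness, and without the 12 arrays the 2 medians were 0.382 and 0.109.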

How the data were processed

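The deposited intensity values, 1 per feature and array, were summarised from 60-base probes with RMA, per the submitters' processing notes. Background correction, genome build and annotation were not given in the sources used here. Slide (8 of 12 arrays, 6 of each race) and detector gain (60 arrays lower, 36 higher) were read from the array file names. Values were put on the log2 scale, quantile-normalized over the 96 arrays and fitted with 32 group means in limma 3.58.1 (R 4.3.3; 64 residual degrees of freedom, 52 without the 12 arrays that stand apart), with Benjamini-Hochberg adjustment over 12832 features and a threshold of 0.05; the step was tested on simulated data. Intensity carries no read depth, and the number of arrays limits precision. Alternatives were the deposited log2 scale, arrays centred on their medians, slide as a fixed term and each gain setting alone. Each gain setting was fitted with a mean per tissue and day and a race difference per tissue, held equal over days. Others left out the lowest 25% of features by mean signal, or the arrays that stand apart (median log2 under 5.5, or closest to another organ). Each array was also left out in turn. Named features were every member called in a comparison, or the 4 largest rises and 4 largest falls where over 8 were called, or the 2 lowest p-values where none was; both designs of a gene and the genes beside WntA were added. Contrasts of day 7 against day 1, and gene 26 without array 80, were chosen after the values were seen. The members and lists were chosen with earlier results of these data known. The authors' combined value table was not used here.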

Additional observations from a re-analysis of the deposited data

Results flagged for a closer look

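Eye and wing took different steps at 11 features, each by limma's test of the difference between the 2 steps (eye minus wing, log2, Benjamini-Hochberg over all features). Between days 1 and 3, genes 4 and 5 differed by 3.75 (adjusted p = 7.65e-08) and 3.26 (adjusted p = 9.61e-05), and gene 24 by 1.68 and 1.73 (adjusted p = 0.000528 and 0.00389) with predicted-gene and walk probes. Gene 14 differed by -1.52 (adjusted p = 0.0486), a call lost on leaving out any of 70 single arrays. These were 5 of the 41 features, 4 higher and 1 lower, against 8.6% of all features, and all 5 were called without the 12 arrays that stand apart. The splits were 2 and 0 both on the deposited scale and with arrays centred.

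Between days 3 and 5, 6 features differed, 4 higher and 2 lower, against 14% of all features, with splits of 5 and 0 on the deposited scale and 1 and 0 with arrays centred. Gene 14 differed by 1.96 (adjusted p = 0.00575) and gene 8 by -1.22 (adjusted p = 0.035), and both were called without the 12 arrays, at 1.54 and -1.49 (adjusted p = 0.00383 and 0.0165). Gene 3 differed by -1.54 (adjusted p = 0.0317), and by -1.15 without the 12 (adjusted p = 0.158). Gene 12 with the walk probes differed by 1.28 (adjusted p = 0.0499), gene 20 by 1.60 (adjusted p = 0.0272) and gene 22 by 1.93 (adjusted p = 0.0445). Without the 12 arrays these 3 turned sign and were not called, at -0.15, -0.36 and -0.47 (adjusted p = 0.827, 0.419 and 0.617). The call was lost on leaving out any of 78 single arrays for gene 12 and any of 22 for gene 22. Between days 5 and 7, limma called 0 of the 41, against 0.577% of all features, and 3 had an unadjusted p under 0.05.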

How the results depend on the processing

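No paired analysis was possible because each replicate number occurs once and pairs no samples. Slide entered as a fixed term instead, and 69 of the 77 named values stayed on their side of the threshold there while 8 lost their call. The count of called features stayed at 0 for distal against proximal forewing, for race by forewing section and for race in the wing and in each of its regions under every alternative run. Without the 12 arrays the counts were 2 for hindwing against forewing, 19 for the wing between days 3 and 5, 9 between days 5 and 7, 2 for the eye between days 1 and 3 and 1 between days 5 and 7, 0 for race in the eye, 1 for distal against proximal by day, 2 for hindwing against forewing by day and 3 for race by tissue and day. On the deposited scale they were 0 for hindwing against forewing, 7 for eye against wing, 6 for the wing between days 1 and 3 and 0 between days 5 and 7, 1 for the eye between days 1 and 3, 0 for race in the eye and 7 for the difference of steps. With arrays centred they were 0 for hindwing against forewing, the second eye step and race in the eye, and 3 for the difference of steps. At the lower gain they were 6 for the wing between days 1 and 3 and 1 between days 5 and 7, 0 for the second eye step and race in the eye, and 5 for the difference of steps. At the higher gain they were 4 for the first wing step and 0 for hindwing against forewing, eye against wing, the later wing steps, the first 2 eye steps, race in the eye and the difference of steps. Fewer arrays enter at either gain. Race is held equal over days there, so race by tissue and day gave no value. With slide as a fixed term race in the eye had 0, and without the lowest 25% of features, which holds gene 18 walk, hindwing against forewing and race in the eye had 0. The shares of all features called under each alternative are not given here, and the cause of the other changes was not tested.

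Leaving out 1 array gave 1 to 2 for hindwing against forewing (2 without any of arrays 5, 11, 26, 28, 33, 67, 69, 78, 82 and 89) and 0 to 1 by day (1 without array 14), 3 to 18, 0 to 15 and 0 to 3 for the eye steps, 0 to 13 for race in the eye, 0 to 12 for race in eye minus race in wing, 5 to 30 for the difference of steps (5 without array 60, 6 without array 7 or 8, 23 without array 55 and 30 without array 82) and 8 to 29 for race by tissue and day (8 without array 8 or 60). Of the 77 named values, 26 changed their call on leaving out 1 array.

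Directions turned without the 12 arrays for gene 12 walk (0.26 at the first eye step, -0.15 for the difference of steps between days 3 and 5), gene 20 (-0.20 walk and -0.43 predicted at the second eye step, -0.36 for the difference, 0.48 for race in the eye on day 3) and gene 22 (-0.31, -0.49 and -0.47). On the deposited scale gene 8 had 0.21 for the difference of steps and gene 4 had -1.869 for race in the eye on day 3. At the higher gain gene 9 had -0.061 for eye against wing. Another background correction was not run, since only summarised values were used. Signal near the array floor limits the 14 features of the lowest 25%.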

Other observations

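The 3 plesseni wing arrays of day 3 that were high at gene 26 were low at gene 16 on the same day. With the predicted-gene probes, gene 16 stood at 3.93 in array 80 of proximal forewing, 5.17 in array 56 of distal forewing and 4.98 in array 32 of hindwing, against a median of 7.02 over the 18 wing arrays of day 3. These arrays were singled out after their values were seen, and no test was made. A malleti distal forewing array of that day, array 33, was as low at gene 16 (4.67) and stood at 3.39 at gene 26. Their median intensities were 70.37 in array 80, 161.8 in array 56 and 45.06 in array 32.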
